A study of Drosophila melanogaster with 15 samples.

Results

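The genes described here are 10 genes of the apoptosis machinery of Drosophila melanogaster: hid, rpr, grim, skl, Drice, Dcp-1, Dronc, Dark, Diap1 and p53. They were chosen by name, as count file rows with one of these FlyBase symbols, out of 17559 genes in the files. All 10 IDs were present. Dcp-1 had no read in any library and the other 9 passed the filter on low counts and were tested.

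Nuclear RNA was sequenced from the mushroom body, a brain structure that flies need for odour memory, in 15 libraries from males. Nuclei were collected by INTACT, an affinity purification of nuclei that carry a tagged nuclear envelope protein. Every group carried UAS-unc84::GFP/+ and R14H06-Gal4, so the tag and the hairpin were both expressed wherever this driver was active. Control flies had R14H06-Gal4/UAS-mCherryRNAi, and knockdown flies had R14H06-Gal4/UAS-Bap6032503, an RNAi transgene against Bap60, which is part of the core of SWI/SNF, a complex that moves nucleosomes. Juvenile flies were collected 0 to 3 hours after eclosion (3 control and 2 knockdown libraries), and mature flies 1 to 5 days after eclosion (5 and 5). The hairpins are the labelled difference within an age, and any further difference between the 2 stocks cannot be told apart from the knockdown. The labels do not say whether libraries of a group came from separate flies, and p-values then reflect only how much the libraries differed, which may be technical.

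In the fly, cell death is switched on mainly by removing a brake. The brake is Diap1, a ubiquitin ligase that binds and holds back caspases. Hid, Rpr, Grim and Skl are small proteins that bind Diap1 and release the caspases. Dronc is the initiator caspase and is activated on a scaffold made of Dark, the fly relative of Apaf-1. Dronc then cleaves the effector caspases Drice and Dcp-1, which take the cell apart. p53 is a transcription factor that can activate rpr and hid after DNA damage, and Ras and MAP kinase signalling represses hid. Mushroom body neuroblasts are lost before the adult ecloses, and some neurons and the wing epidermis die shortly after eclosion.

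Libraries held 17447070 to 70495790 gene counts. Values below are CPM (gene counts scaled to a common library size) on the TMM scale unless another scale is named, as mean ± SD over the libraries of a group. The libraries were described with 16 Kenyon cell markers (Kenyon cells are the intrinsic neurons of the mushroom body). None of the 15 libraries is of unpurified nuclei, so these markers do not test how pure the labelled cells were. The sum of 9 muscle genes exceeded that of the Kenyon cell markers in juvenile knockdown 1 (18174 against 16751 CPM). It also did in mature control 4 (23866 against 20795) and mature knockdown 2 (23463 against 21712), and in no other library. All 16 Kenyon cell markers had reads, and their summed level was 17758 to 25816 CPM in juvenile controls, 15931 to 16751 in juvenile knockdown, 19430 to 28910 in mature controls and 21533 to 29089 in mature knockdown libraries. Bap60 was 9.49 ± 3.76 CPM in juvenile controls and 6.33 ± 1.84 in juvenile knockdown libraries, which overlapped. It was 17.3 ± 2.61 CPM in mature controls and 11.2 ± 2.69 in mature knockdown libraries, all 5 of which lay below all 5 controls. Neither difference passed edgeR's quasi-likelihood test after Benjamini-Hochberg adjustment (log2 −0.58, adjusted p = 0.331, and log2 −0.63, adjusted p = 0.719). The juvenile libraries varied more among themselves, with a biological coefficient of variation of 0.863 against 0.251 in mature libraries. The tests used 1 estimate of the spread per gene over all 15 libraries. Juvenile p-values may therefore be too small and mature ones too large, and calls at the 2 ages are not directly comparable.

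The 4 Diap1 antagonists form a cluster on chromosome arm 3L. In the annotation of assembly BDGP6.54 they all lie on the minus strand, with hid at 3L 18167745 to 18185641, grim at 18302719 to 18304417, rpr at 18397535 to 18398435 and skl at 18438561 to 18439942. From the start of hid to the end of skl the cluster covers 272198 bp, and its gaps are 117077, 93117 and 40125 bp. The annotation lists 13 other genes in it. Of these, 11 are in the files, and 0 averaged 1 CPM or more over all 15 libraries, as grim did not either (0.913 CPM). CG5103, chosen after its values were seen, had means of 1.04 CPM in juvenile controls, 2.00 in juvenile knockdown, 0.0589 in mature controls and 0.0186 in mature knockdown libraries. It was lower with age in the knockdown genotype (adjusted p = 0.00661) and passed in no other comparison. The remaining genes lie elsewhere: Dronc at 3L 9968479 to 9971002, Diap1 at 3L 16038410 to 16051034, Drice at 3R 29799658 to 29801584, p53 at 3R 23049657 to 23054082, Dark at 2R 17020027 to 17026703 and Dcp-1 at 2R 23551313 to 23553547.

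Overlapping annotations limit 5 of the 10 genes. Dcp-1, an effector caspase, lies wholly inside pita, a zinc finger gene on the opposite strand, and 0 of its 2235 bp are free of pita. Its count of 0 in all 15 libraries therefore gives no information on its expression. The same held for nearly all such genes: 1022 of 1027 protein-coding genes inside another gene on the opposite strand were at 0 in every library (99.51%), against 209 of 7395 that overlap no gene (2.826%). The free part of the gene span was 409 of 1699 bp for grim, 2044 of 4426 bp for p53, 3625 of 6677 bp for Dark and 10982 of 12625 bp for Diap1. For hid, rpr, skl, Drice and Dronc the whole span was free of other genes.

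Among the antagonists, hid had by far the highest CPM in juvenile controls, before any scaling by gene length. It had 409, 378 and 454 CPM in the 3 juvenile control libraries and 129 and 60.6 CPM in the 2 juvenile knockdown libraries. In mature controls hid had 28.7, 74.8, 96.2, 114.8 and 48.0 CPM, and in mature knockdown libraries 23.0, 51.2, 43.8, 44.7 and 39.1 CPM. Juvenile controls stood above every other library, and the mature groups overlapped. The group means were 413 ± 38.3, 94.9 ± 48.4, 72.5 ± 34.9 and 40.4 ± 10.6 CPM in that order.

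The other antagonists, all shorter genes, had far lower CPM. grim had 3.96, 1.63 and 2.21 CPM in juvenile controls and 1.05 and 0.289 CPM in juvenile knockdown libraries. It had 0.328, 0.477, 0.726, 0.556 and 0.430 CPM in mature controls and 0.228, 0.589, 0.286, 0.827 and 0.0994 CPM in mature knockdown libraries, where its counts were 2 to 19 reads. Juvenile controls lay above all other groups for grim too. skl had 5.75, 6.32 and 7.78 CPM in juvenile controls and 3.20 and 6.12 CPM in juvenile knockdown libraries, which overlapped. In mature flies skl stayed between 2.88 and 3.76 CPM in all 10 libraries.

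rpr, which is a target of ecdysone and of p53, had a different pattern. It had 0, 2.48 and 4.57 CPM in juvenile controls and 0 and 0.541 CPM in juvenile knockdown libraries. Juvenile control 1 had 0 rpr reads among 37879789 gene counts and juvenile knockdown 1 had 0 among 45547974, and a count of 0 allows up to 3 reads by counting error alone. In mature controls rpr had 2.11, 2.497, 1.14, 3.50 and 3.23 CPM, and in mature knockdown libraries 1.14, 4.25, 2.31, 3.395 and 2.19 CPM. Juvenile controls spanned the whole mature range. Genes that had at least 0.5 CPM in all other libraries of an age but 0 reads in 1 library numbered 15 to 204 per juvenile library. These were 0.18% to 2.39% of the genes with that level in the other juvenile libraries. They numbered 0 to 2 per mature library. rpr, with 0 reads in 2 juvenile libraries, is not among them.

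The caspases split in a similar way. Dronc, the initiator, had 169, 137 and 147 CPM in juvenile controls and 112 and 105 CPM in juvenile knockdown libraries. In mature controls it had 10.5, 35.3, 50.3, 93.6 and 13.2 CPM, and in mature knockdown libraries 6.62, 16.9, 19.5, 13.5 and 9.29 CPM. The ages did not overlap for Dronc, and the mature controls spread widely. Drice, the effector caspase, had 38.9, 33.8 and 39.1 CPM in juvenile controls and 20.2 and 24.3 CPM in juvenile knockdown libraries. It had 15.7, 16.7, 17.9, 19.6 and 14.0 CPM in mature controls and 12.4, 14.0, 14.9, 15.7 and 10.9 CPM in mature knockdown libraries. Every juvenile value of Drice lay above every mature one.

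The scaffold, the inhibitor and p53 varied least. Dark had 36.2, 45.6 and 47.1 CPM in juvenile controls, 38.0 and 39.9 CPM in juvenile knockdown libraries and 22.2 to 33.5 CPM in the 10 mature libraries. Diap1 had 242, 246 and 241 CPM in juvenile controls, 255 and 240 CPM in juvenile knockdown libraries, 235 ± 35.2 CPM in mature controls and 253 ± 27.8 CPM in mature knockdown libraries. p53 had 2.67, 3.27 and 3.31 CPM in juvenile controls, 1.83 and 4.39 CPM in juvenile knockdown libraries, 2.84 ± 0.443 CPM in mature controls and 2.63 ± 0.595 CPM in mature knockdown libraries. The 4 groups overlapped for Diap1 and for p53.

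**Figure D1:**
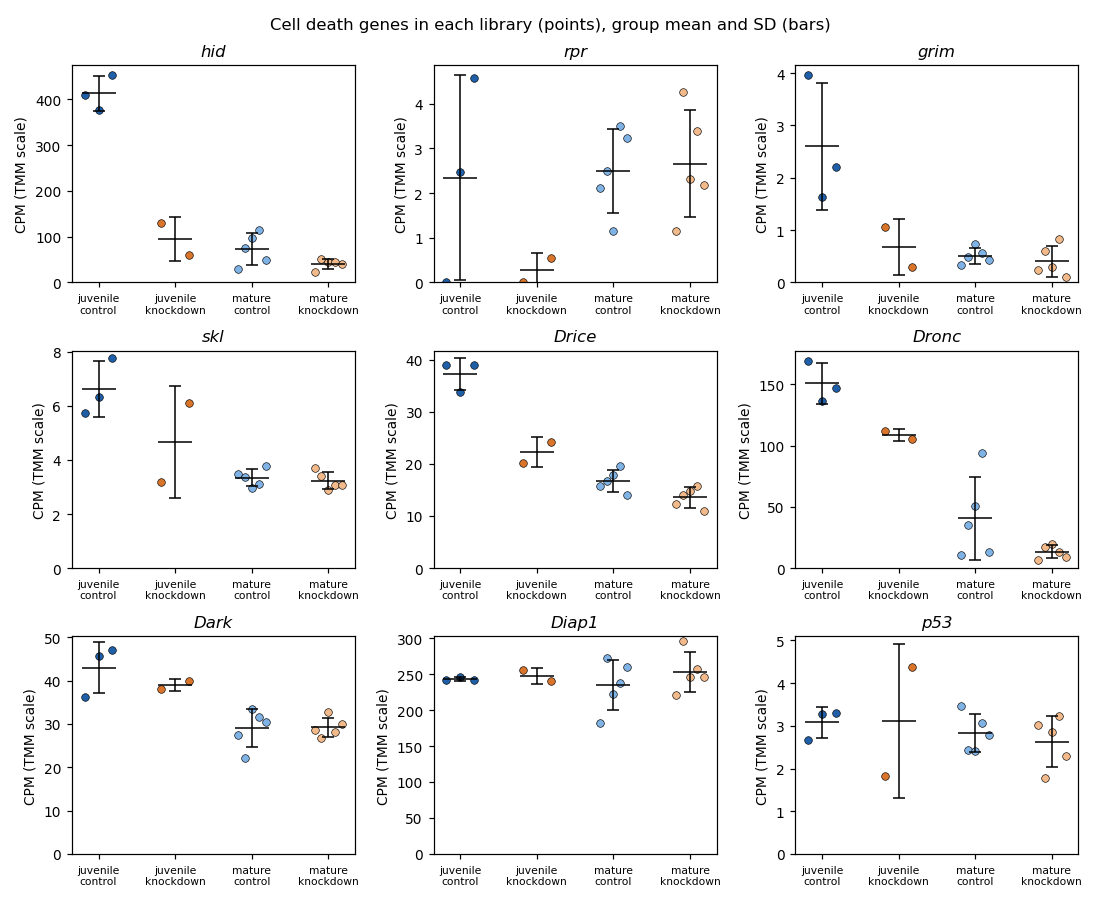
CPM on the TMM scale (vertical axes, starting at 0) of the 9 genes with reads, by group. Points are libraries, horizontal bars the group mean and whiskers the SD, cut off at 0. hid is highest in the 3 juvenile controls (378 to 454 CPM), and Diap1 lies between 182 and 297 CPM in every library.

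Levels of different genes can be compared only per length, here as mean CPM per kb of the part of each gene span that is free of other genes. In juvenile controls Dronc was highest at 59.8 CPM per kb, and hid (23.1), Diap1 (22.2) and Drice (19.3) followed, with overlapping ranges between hid and Diap1. Dark had 11.9, grim 6.37, skl 4.79, rpr 2.61 and p53 1.51 CPM per kb. In juvenile knockdown libraries hid stood at 5.30 CPM per kb, below Dronc (43.0), Diap1 (22.5), Drice (11.5) and Dark (10.8), with Drice and Dark overlapping. Per kb of exon this order was different, as given after the mature values.

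In mature controls Diap1 was highest at 21.4 CPM per kb. Dronc had 16.1, Drice 8.71, Dark 8.01, hid 4.05, rpr 2.77 and skl 2.41 CPM per kb, and each of these overlapped its neighbour in the order. p53 (1.39) and grim (1.23) came last and overlapped. In mature knockdown libraries Diap1 had 23.0 CPM per kb and stood above all other members, while hid had 2.26 and rpr 2.95 CPM per kb, which overlapped. Nuclear RNA includes unspliced transcripts, and hid has long introns. Per kb of merged exon instead, the place of hid was higher in all 4 groups. It ranked first in juvenile controls (103 CPM per kb), before Diap1 (77.4) and Dronc (74.9). In juvenile knockdown libraries it had 23.6 CPM per kb of exon, above Drice (11.5) and Dark (7.98). In mature flies it had 18.04 CPM per kb of exon in controls, above Drice (8.71) and Dark (5.95), and 10.05 in knockdown libraries, above every member but Diap1 (80.5).

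**Figure D2:**
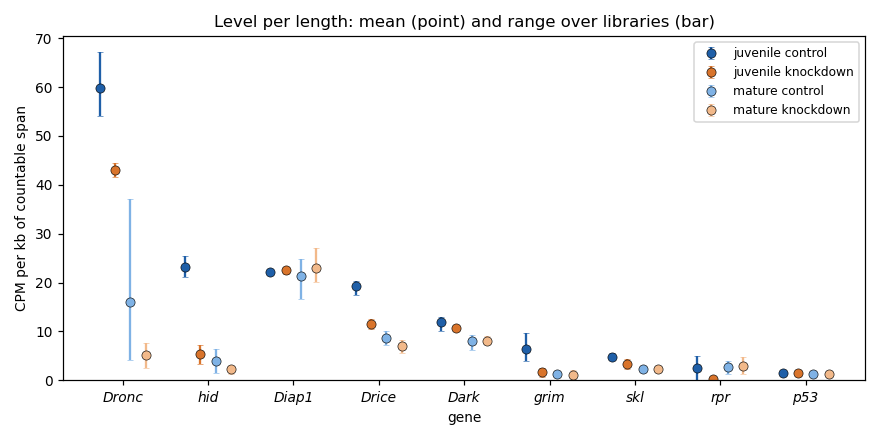
Mean CPM per kb of gene span free of other genes (vertical axis) for the 9 genes with reads, in the 4 groups. Points are group means and bars run from the lowest to the highest library. Dronc is highest in both juvenile groups and Diap1 in both mature groups.

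The first comparison asked how Bap60 knockdown bears on these genes in newly eclosed flies. hid was 4.36-fold lower in juvenile knockdown than in juvenile control libraries (log2 −2.12, SE 0.54, adjusted p = 0.0431 by edgeR's quasi-likelihood test with Benjamini-Hochberg adjustment over 11997 genes). Drice was 1.67-fold lower (log2 −0.74, SE 0.19, adjusted p = 0.0326). Both knockdown libraries lay below all 3 controls for each gene. In bulk nuclei, fewer nuclei of a type and less RNA per nucleus cannot be told apart. These were the 2 called among 9 tested members, both lower, where 5.33% of all tested genes were called, 3.79% as lower. The split of all called genes depends on the scaling: 185 were higher and 455 lower here, against 281 and 335 with RLE, 547 and 669 with DESeq2, and 314 and 234 with upper-quartile scaling. The members' median log2 difference was −0.50, against −0.02 over all tested genes.

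grim and Dronc were also lower in both juvenile knockdown libraries than in all 3 controls and did not pass the test (grim log2 −1.96, SE 0.97, adjusted p = 0.251, and Dronc log2 −0.47, SE 0.75, adjusted p = 0.826). Groups without overlap made up 30% of all tested genes, 15.2% with knockdown lower. rpr had a log2 difference of −3.07 (SE 1.47, adjusted p = 0.244), and each group held a library with no rpr read. It ran from −9.24 to −2.16 when single libraries were left out, and passed without juvenile control 1 (−3.60, adjusted p = 0.0353). skl (log2 −0.50, adjusted p = 0.386), Dark (−0.14, 0.752), Diap1 (0.02, 0.969) and p53 (0.01, 0.996) did not pass either. For Diap1 the SE of the log2 difference was 0.15. Marker sums moved between the juvenile groups too. Photoreceptor markers, of which 12 of 13 had reads and Arr2 was at 0, summed to 5177 to 5940 CPM in controls and 3496 to 4258 CPM in knockdown libraries, and the Kenyon cell sums given above did not overlap either. Their part in the hid and Drice results was not tested.

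The hid and Drice calls in juvenile flies were close to the threshold. The hid call was lost when any of 11 libraries was left out, at adjusted p from 0.0504 to 0.184: juvenile controls 2 and 3, both juvenile knockdown libraries, mature controls 2, 3 and 5, and mature knockdown libraries 2, 3, 4 and 5. The Drice call was lost without juvenile control 1 or 3 or either juvenile knockdown library, at adjusted p from 0.0501 to 0.166. Without juvenile knockdown 1 the log2 difference of hid was −2.80, and without juvenile knockdown 2 it was −1.68. limma-voom (adjusted p = 0.192 for hid and 0.244 for Drice) and the fit without both juvenile number 1 libraries (0.0529 and 0.140) ended both calls, no filter ended that of hid (0.0538), and upper-quartile scaling (0.0601) and the compared groups alone (0.103) ended that of Drice.

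The second comparison repeated the question in mature flies. None of the 9 tested members passed, where 0.0583% of all tested genes were called. The counts at an unadjusted p under 0.05 were 3 members and 693 of all genes. The 3 members were Dronc (3.06-fold lower, log2 −1.61, SE 0.54, adjusted p = 0.719), hid (1.79-fold lower, log2 −0.84, SE 0.35, adjusted p = 0.822) and Drice (1.24-fold lower, log2 −0.31, SE 0.13, adjusted p = 0.822). Control and knockdown libraries overlapped for each of the 9 members, and did not for 1.93% of all tested genes. DESeq2 and limma-voom also called 0 members.

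Same-numbered mature libraries deviated together from their group means (r of 0.115 to 0.559 in the 5 pairs). Differently numbered ones had r of −0.456 to 0.363, the highest for control 4 with knockdown 2, so the pairing is uncertain. With this limit, the values were also set side by side by number. hid was lower in the knockdown library of all 5 pairs, by 1.25-, 1.46-, 2.20-, 2.57- and 1.23-fold in pairs 1 to 5. Dronc was lower in all 5, by 1.59-, 2.09-, 2.58-, 6.92- and 1.42-fold. Drice was lower in all 5, by a nearly even 1.20- to 1.28-fold.

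Over all tested genes, 7.71% were lower in all 5 pairs and 6.58% higher in all 5. rpr, grim, skl, Dark and p53 were lower in 3 of the 5 pairs, and Diap1 in 1. With the replicate number as a block, hid (adjusted p = 0.166), Dronc (0.154) and Drice (0.386) still did not pass edgeR's test. The controls of pairs 2, 3 and 4 were the 3 highest mature libraries for both hid and Dronc.

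**Figure D3:**
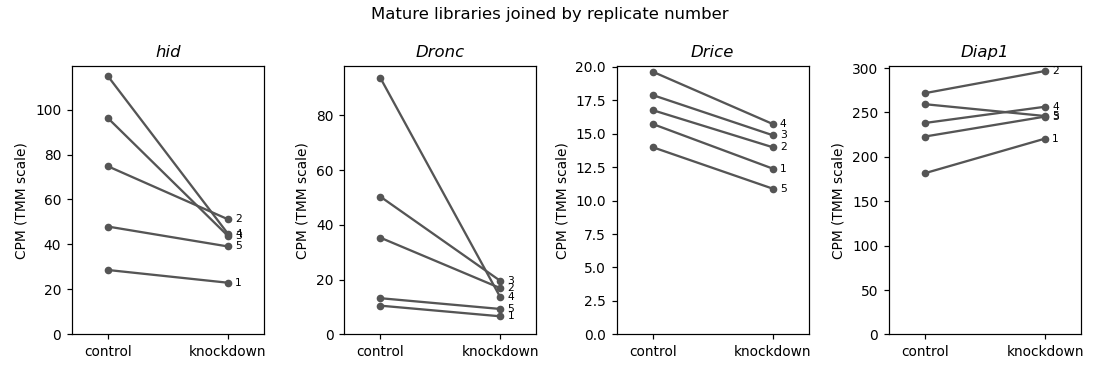
CPM on the TMM scale (vertical axes, starting at 0) of hid, Dronc, Drice and Diap1 in mature control and knockdown libraries, with lines joining libraries of the same replicate number. hid, Dronc and Drice fall along all 5 lines and Diap1 along 1.

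The third comparison asked how the genes differ between newly eclosed and mature flies of the control genotype. Of the 9 tested members 6 were lower in mature controls and none was higher, where 22% of all tested genes were called, 9.87% as lower. hid was 5.70-fold lower (log2 −2.51, SE 0.39, adjusted p = 0.00076) and grim 5.11-fold lower (log2 −2.35, SE 0.72, adjusted p = 0.0242). Dronc was 3.72-fold lower (log2 −1.89, SE 0.59, adjusted p = 0.0381), Drice 2.22-fold (log2 −1.15, SE 0.15, adjusted p = 3.4e-05), skl 1.99-fold (log2 −0.99, SE 0.24, adjusted p = 0.00665) and Dark 1.48-fold (log2 −0.57, SE 0.14, adjusted p = 0.00711). All 5 mature controls lay below all 3 juvenile controls for each of the 6, as for 10.9% of all tested genes.

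rpr (log2 0.08, SE 1.02, adjusted p = 0.964), Diap1 (−0.05, SE 0.12, 0.785) and p53 (−0.12, SE 0.33, 0.812) did not pass. The members' median log2 difference was −0.99, against −0.06 over all tested genes. Leaving out single libraries ended 2 of the calls: Dronc without any of 9 libraries (juvenile controls 1, 2 and 3, both juvenile knockdown libraries, mature controls 2, 3 and 5, and mature knockdown 4) at adjusted p from 0.0501 to 0.0763, and grim without juvenile control 1 or mature control 1 or 5 at adjusted p from 0.0533 to 0.0807. The Dronc call was also lost with limma-voom (adjusted p = 0.0608), the compared groups alone (0.0814) and without both juvenile number 1 libraries (0.0933), which ended the grim call too (0.0546). Fat body markers, of which 7 of 8 had reads and Tret1-1 was at 0, summed to 212 to 266 CPM in juvenile controls, 292 to 314 in juvenile knockdown, 2039 to 2802 in mature controls and 1817 to 3582 in mature knockdown libraries. The sum rose with age, but most of its genes did not: of the 7 tested, 3 were higher and 4 lower in mature controls (median log2 −0.13). In the knockdown genotype 2 were higher and 5 lower with age (median log2 −1.39). The part of fat body markers in the differences with age was not tested.

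In the knockdown genotype 3 of the 9 members were lower in mature flies, where 34.2% of all tested genes were called, 16.4% as lower. Dronc was 8.19-fold lower (log2 −3.03, SE 0.65, adjusted p = 0.00415), Drice 1.64-fold (log2 −0.71, SE 0.17, adjusted p = 0.00373) and hid 2.35-fold (log2 −1.23, SE 0.44, adjusted p = 0.0469). Dark (log2 −0.42, adjusted p = 0.0506), skl (−0.53, 0.144), grim (−0.71, 0.519), Diap1 (0.03, 0.879) and p53 (−0.24, 0.638) did not pass. rpr was higher in all 5 mature than in both juvenile knockdown libraries, as 24.5% of all tested genes were (log2 3.25, SE 1.44, adjusted p = 0.0929).

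The hid call was lost without any of 9 libraries, at adjusted p from 0.0511 to 0.528: juvenile control 2, juvenile knockdown 1, mature controls 2 and 3 and the 5 mature knockdown libraries. Its log2 difference was −0.51 without juvenile knockdown 1. The Drice call was lost without juvenile knockdown 2 (adjusted p = 0.0607). limma-voom (0.203), no filter (0.0582) and the fit without both juvenile number 1 libraries (log2 −0.58, adjusted p = 0.453) also ended the hid call. rpr passed with DESeq2 (adjusted p = 0.0230), as did Dark (0.0050), and skl passed without both juvenile number 1 libraries (0.0159).

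The difference between the knockdown effects at the 2 ages was tested directly. None of the 9 members passed, where 1.55% of all tested genes were called. No member had an unadjusted p under 0.05, against 1955 of all genes. For hid the mature minus juvenile log2 difference was 1.28, with an SE of 0.62 (adjusted p = 0.336). For Dronc it was −1.14 (SE 0.91, adjusted p = 0.589). The comparisons share libraries, so their values are given side by side only.

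**Figure D4:**
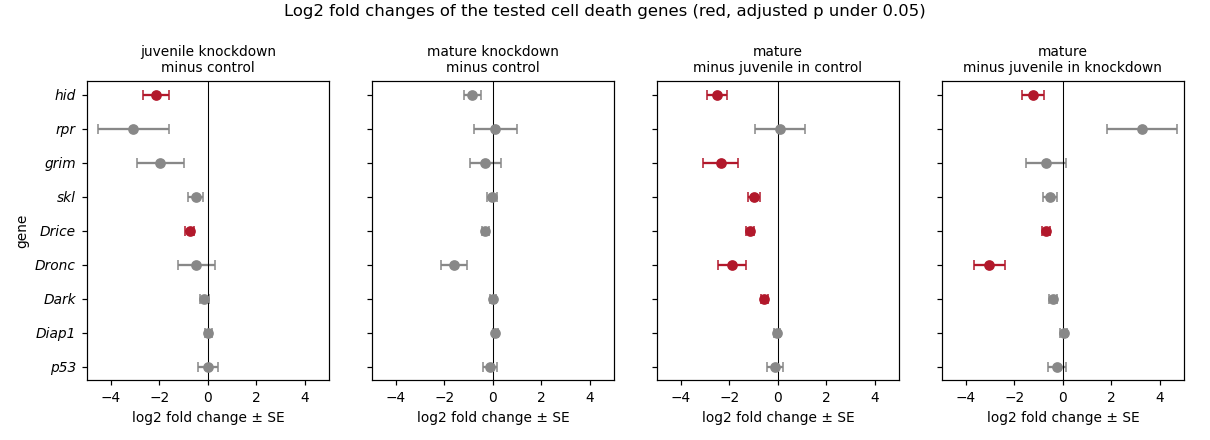
Log2 fold change with its SE (horizontal axes) of the 9 tested genes in the 4 comparisons of 2 groups. Red marks an adjusted p under 0.05. Red points lie to the left of 0 in both juvenile knockdown (2 genes) and the comparisons of age (6 and 3 genes), and there are none in mature knockdown.

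The pathway around these genes was followed in 11 lists of 98 other genes, of which 95 are in the files and 87 were tested. The lists covered other caspases, IAP proteins and their regulators, the Bcl-2 family and apoptosome, TNF and JNK signalling, DNA damage, the Hippo pathway, engulfment, steroid-controlled regulators, regulators of the hid cluster, EGFR and Ras signalling, and autophagy. In juvenile knockdown 4 of the 87 passed, 3 lower and 1 higher, and the median log2 difference was 0.0049, against 5.33% called and a median of −0.02 over all tested genes. BI-1, a Bax inhibitor homolog, had 75.7 ± 9.25 CPM in controls and fell to 43.5 ± 4.01 CPM (adjusted p = 0.0156, log2 −0.80, SE 0.18). Mkk4, a kinase that activates JNK, fell from 97.9 ± 12.2 to 63.5 ± 2.08 CPM (adjusted p = 0.0242, log2 −0.63, SE 0.15).

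Drep1, which encodes the inhibitor of the apoptotic nuclease Drep4, fell from 42.9 ± 4.75 to 27.4 ± 1.25 CPM in juvenile knockdown (adjusted p = 0.0393, log2 −0.65, SE 0.18). srp, a GATA factor that is also one of the 8 hemocyte markers used here, rose from 23.7 ± 2.62 to 44.4 ± 2.76 CPM (adjusted p = 0.0325, log2 0.90, SE 0.23). The hemocyte markers summed to 760 to 890 CPM in juvenile controls and 493 to 617 CPM in juvenile knockdown libraries, and all 8 had reads. With any 1 of the 15 libraries left out, between 0 and 5 of the 87 pathway genes passed. In mature knockdown 0 of the 87 passed, with 7 at an unadjusted p under 0.05, and DESeq2 called 1 and limma-voom 2. The 3 with the smallest p were Atg1, an autophagy kinase (log2 −0.34, adjusted p = 0.277), the autophagy receptor gene ref(2)P (−0.40, 0.424) and Cyt-c-d (−1.02, 0.719).

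With age, 26 of the 87 pathway genes passed in controls, 17 lower and 9 higher in mature flies, with a median log2 difference of −0.12, where 22% of all tested genes were called, 9.87% as lower, with a median of −0.06. Of 3 tested other caspases, Strica fell (log2 −1.73, SE 0.43, adjusted p = 0.0076). Of 4 tested Bcl-2 family and apoptosome genes, Buffy (log2 −0.98, adjusted p = 0.00164) and Debcl (−0.79, 0.0434), the Bcl-2 family members of the fly, fell, and eIF3m, a translation initiation factor subunit, rose (0.76, 0.000622). Among 14 TNF and JNK genes, egr, the TNF ligand (log2 −0.78, adjusted p = 0.00705), and Traf4, an adaptor of its receptor (−1.27, 0.000697), fell, and kay, the fly Fos, rose (0.68, 0.00441).

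Of 11 tested engulfment genes 3 fell with age in controls and 1 rose. drpr, the engulfment receptor of glia, fell (log2 −0.61, adjusted p = 0.000526), as did Drep1 (−0.56, 0.00657) and Drep4 (−1.32, 0.00704), and the nuclease gene DNaseII rose (0.64, 0.027). Among 6 tested steroid-controlled regulators, Eip74EF (log2 −1.40, adjusted p = 0.00193), Eip75B (−0.61, 0.00182) and Eip93F (−0.39, 0.0239) fell and ftz-f1 rose (0.50, 0.0112). In the DNA damage list Xrp1 (log2 0.77, adjusted p = 0.00308) and tefu, the fly ATM kinase (0.63, 0.0205), rose. In the EGFR and Ras list Ras85D rose (0.69, 0.000434), and aop, a repressor that MAP kinase inactivates (−1.53, 0.016), and the ligand gene spi (−0.44, 0.0225) fell.

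Of 9 tested Hippo genes, hpo (log2 0.75, adjusted p = 0.00504) and Mer (0.47, 0.0202) rose with age in controls and ex fell (−0.78, 0.00504). BI-1 (−0.45, 0.0228), the transcription factor gene grh (−0.86, 0.0117) and the autophagy gene Atg18a (−0.30, 0.0488) also fell. In the knockdown genotype 36 of the 87 passed with age, 21 lower and 15 higher, where 34.2% of all tested genes were called. The split was 31 lower and 9 higher with RLE, 28 and 10 with upper-quartile scaling, and 31 and 11 with DESeq2. The called genes included Abd-B (log2 −4.43, adjusted p = 0.00322), Ubx (−3.29, 0.015) and foxo (−0.996, 0.0178), 3 transcription factor genes of the list of hid cluster regulators, and Mkk4, which rose (1.07, 4.12e-05). For the difference of knockdown effects between ages, 1 of the 87 passed, Mkk4 (log2 difference 0.75, adjusted p = 0.046). No pathway gene passed with limma-voom, without the filter, or when any 1 library other than juvenile control 1, mature control 1 or mature knockdown 2 was left out. With RLE and with upper-quartile scaling the 1 gene called was lower, and so was not Mkk4.

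Outside the apoptosis genes, the genes whose pattern was most like hid were taken by Pearson's r of log2(CPM + 0.5) over the 15 libraries, among 6649 genes averaging 5 CPM or more. They were b (r = 0.985), Pu (0.977), CG42269 (0.975), CG33110 (0.974) and Zip71B (0.971). b encodes an aspartate decarboxylase that makes beta-alanine for cuticle tanning, and Pu a GTP cyclohydrolase that supplies the cofactor of tyrosine hydroxylase. The points of these correlations share the 4 groups and the library scaling. Over the 10 mature libraries alone r with hid was 0.944 for b, 0.920 for Pu, 0.938 for CG42269, 0.855 for CG33110 and 0.891 for Zip71B. In the same order of likeness Drice ranked 42 (r = 0.923), Dronc 85 (0.891), Dark 552 (0.719) and Diap1 2219 (0.172). For these members r with hid over the 10 mature libraries alone was 0.743, 0.958, 0.148 and 0.329 in that order. Dronc was thus closer to hid among mature libraries than any of the 5 genes above, and the other members were not closer than all of them.

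A list of cuticle tanning genes was then added after b and Pu had been seen in this place. It held 8 genes of the files, of which y was at 0 in all libraries and lies inside another gene, and 7 had reads. Their summed level was 5281 to 6359 CPM in juvenile controls, 1758 to 3389 in juvenile knockdown, 502 to 2285 in mature controls and 476 to 776 in mature knockdown libraries. ple, the tyrosine hydroxylase gene, was 3035 ± 328, 1237 ± 824, 543 ± 439 and 173 ± 76.4 CPM in these groups. e, which encodes beta-alanyl-dopamine synthase, had means of 2058, 778, 261 and 80.1 CPM. In juvenile controls ple and e made up most of the sum. Of the 7 tested tanning genes 5 were lower and 2 higher in juvenile knockdown, as in mature knockdown (median log2 −0.92 and −0.36). With age in controls all 7 were lower.

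Over the 10 mature libraries the summed tanning level had r = 0.961 with hid and 0.988 with Dronc, as a description of points that share library scaling. The sum includes b and Pu, which were picked for their likeness to hid. Without both, r was 0.958 with hid and 0.985 with Dronc. Per 1000 CPM of tanning genes, hid stood at 64.3, 71.5 and 74.7 CPM in juvenile controls and at 38.1 and 34.5 CPM in juvenile knockdown libraries. It stood at 50.2 to 73.1 CPM per 1000 in mature controls and 48.3 to 68.8 in mature knockdown libraries. On this scale the juvenile groups did not overlap and the mature groups did. The sum in this ratio still includes b and Pu, picked for their likeness to hid, and the ratio was not computed without them. For Dronc the same ratio was 24.1 to 26.6 CPM in juvenile controls and 33.1 and 59.8 in juvenile knockdown libraries, so the juvenile order was the opposite of that for hid. The part of tanning gene expression in the hid and Dronc results was not tested.

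**Figure D5:**
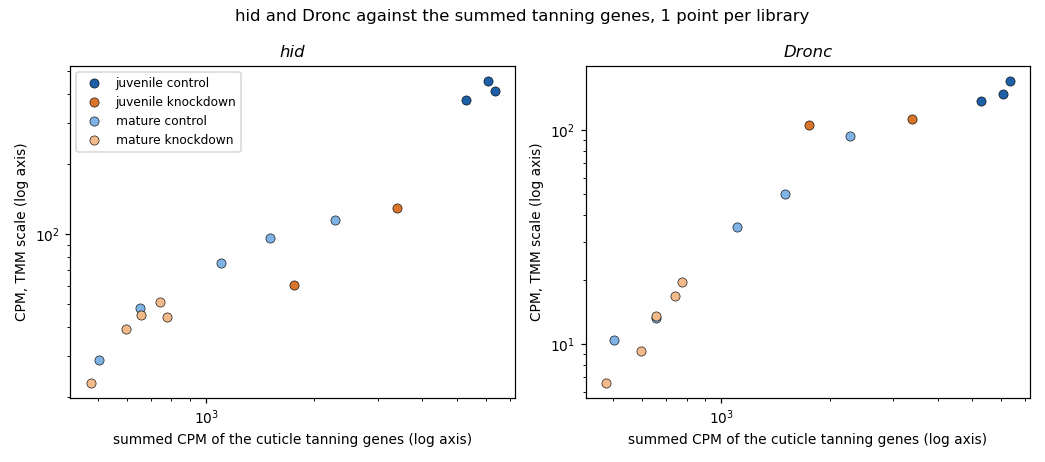
CPM of hid and Dronc (vertical log axes) against the summed CPM of the cuticle tanning genes (horizontal log axes), 1 point per library. Both genes rise with the tanning genes over the mature libraries (r = 0.961 and 0.988), and the 2 juvenile knockdown libraries lie below the trend of hid.

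Summed markers of other cells also moved with hid among mature libraries. The 9 muscle genes in the files summed to 3980 to 23866 CPM in mature controls and 4306 to 23463 CPM in mature knockdown libraries, all 9 had reads, and r with hid was 0.797 over the 10 mature libraries (Dronc 0.677). In juvenile flies their sum was 8658 to 11780 CPM in controls and 14899 to 18174 CPM in knockdown libraries, the opposite order to hid. The 10 glial markers, of which moody and alrm were at 0 and lie inside other genes, summed to 1561 to 1643, 1333 to 1562, 873 to 1327 and 887 to 1248 CPM in the 4 groups, with r = 0.735 with hid over mature libraries. Of the 8 tested glial genes, 6 were lower and 2 higher with age in controls (median log2 −0.06). With age in knockdown 3 were lower and 5 higher (median log2 0.27). In mature knockdown 2 were lower and 6 higher (median log2 0.17), where hid was lower. The glial sum therefore does not describe most of its genes in the knockdown genotype. The part of muscle and glial markers in the hid and Dronc results was not tested. The Kenyon cell markers had r = −0.440 with hid there, general neuronal markers −0.622, hemocyte markers −0.703, the list of neuroblast and dividing cell genes −0.760, photoreceptor markers 0.158 and fat body markers 0.172. Among markers of neuroblasts and dividing cells, dpn had means of at most 0.475 CPM and CycB of at most 2.44 CPM in any group. The sum of this list was 3624 to 4702 CPM in juvenile controls and 4898 to 6516 CPM in mature controls. Of its 8 tested genes, 7 were lower with age in controls and 1 was higher. The sum, and so its r with hid, therefore does not describe most genes of the list.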

How the data were processed

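The deposited files hold raw read counts per gene, 1 file per library, which the values show were not normalized. Reads were aligned with STAR 2.5.3a and counted with HTSeq 0.7.1 on build BDGP6, per the submitters' processing notes. Strand, counting mode and annotation release: not given in the sources used here. Genes inside other genes were at 0, so the counts behave as counts over whole gene spans, with reads of shared positions left out. Levels per length therefore use the gene span free of other genes in Ensembl release 115 (BDGP6.54), in place of the exon length first planned. Of 17559 IDs 17253 were annotated. Neither library sizes nor tests include reads outside genes (1.118% to 2.838%) or ambiguous ones (7.077% to 7.75%).

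Counts were tested in R 4.3.3 with edgeR 4.0.16: filterByExpr, TMM, 1 mean per group over all 15 libraries, robust quasi-likelihood F-tests, and Benjamini-Hochberg adjustment over 11997 genes, with a call at an adjusted p under 0.05. Where no other test is named, an adjusted p comes from these F-tests. These steps were first run on simulated counts, and the outcome of that run is not given here. No 2 libraries were duplicates (lowest chi-square per degree of freedom 15.8). Replicate numbers were taken to pair the mature libraries, since each of 5 same-numbered pairs deviated together (r of 0.115 to 0.559), and not the juvenile ones (r of −0.039 and 0.036). Differently numbered mature libraries had r of −0.456 to 0.363, which overlaps the same-numbered range, so the pairing is uncertain.

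Named genes were the members and Bap60, up to 4 called genes of each pathway list and comparison with the smallest p (the 3 smallest where none was called), overlapping genes and the genes of the cluster with at least 1 CPM, and the 5 most like hid. CG5103 averaged under 1 CPM and was named outside this rule, after its values were seen. The members and lists were chosen with earlier results of these data known. Cyt-c-p, br, lola, para, FASN1, Nplp2, wupA, stw and AANAT1 were not analysed here. The results were recomputed with DESeq2 1.42.0, limma-voom (limma 3.58.1, sample weights), no filter on low counts, RLE or upper-quartile scaling, the compared groups alone, the replicate block and leaving out each library. Leaving out both juvenile number 1 libraries, the tanning list and the counts of pairs were chosen after seeing the data.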

Additional observations from a re-analysis of the deposited data

How the results depend on the processing

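Over 23 alternatives each, all 253 values of the 11 called member differences kept their direction and 202 kept the call. hid, Drice, Dark and skl with age in controls and Dronc with age in knockdown kept it in 23 of 23. With age in controls grim kept it in 19 and Dronc in 11. With age in knockdown Drice kept it in 22 and hid in 11. In juvenile knockdown hid kept it in 9 and Drice in 15. The cause was not tested.

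Members called in juvenile knockdown (2) fell to 0 with limma-voom and without both juvenile number 1 libraries, and to 1 with upper-quartile scaling, no filter or the compared groups alone, with a range of 0 to 2 when single libraries were left out. Members called with age in knockdown (3) became 5 with DESeq2, the replicate block and the compared groups alone (2 to 5 without single libraries), and those called with age in controls were 4 to 6. For the difference of knockdown effects the replicate block called 1 member and all other settings 0, single libraries left out included, and in mature knockdown every setting called 0 members.

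All genes called in juvenile knockdown (640, of which 185 higher) numbered 1216 with DESeq2 (547 higher), 10 with limma-voom (1 higher), 1088 with the replicate block (346 higher) and 387 with the compared groups alone (166 higher), 616 with RLE (281 higher), 548 with upper-quartile scaling (314 higher), and 257 to 985 without single libraries. In mature knockdown (7) they numbered 47, 114, 35 and 13 in that order, 12 without both juvenile number 1 libraries and 3 to 11 without single libraries. With age in controls (2644) limma-voom called 1668, and the range without single libraries was 2023 to 2721, and with age in knockdown (4104) it was 2516 to 4640. For the difference of effects (186, of which 153 higher) DESeq2 called 550 (349 higher), limma-voom 7, upper-quartile scaling 102 (64 higher), the replicate block 489 and the fit without both juvenile number 1 libraries 633, with 91 to 457 without single libraries.

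Pathway genes called in juvenile knockdown (4, of which 1 higher) numbered 9 with DESeq2 (6 higher), 0 with limma-voom and 12 with the replicate block (5 higher), 4 with RLE (2 higher), 3 with upper-quartile scaling (2 higher), and 0 to 5 without single libraries. In mature knockdown (0) DESeq2 called 1 and limma-voom 2, and none were called without single libraries (0 to 0). With age in controls (26) limma-voom called 17, with a range of 19 to 28 without single libraries, and with age in knockdown (36) that range was 18 to 40. For the difference of effects (1) the counts were 4 with DESeq2, 1 with RLE and 1 with upper-quartile scaling (both lower, against higher in the reported fit), 0 with limma-voom, 0 with no filter, 6 with the replicate block, 2 without both juvenile number 1 libraries and 0 to 2 without single libraries.

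Sign changes were 36, all among differences that were not called. Without both juvenile number 1 libraries Diap1 in juvenile knockdown was −0.026, rpr with age in controls −0.51 and grim with age in knockdown 0.49. p53 in juvenile knockdown was −0.051 with limma-voom and −0.11 with the replicate block. Dark in mature knockdown was −0.0021 with limma-voom and −0.00073 with the compared groups alone. Diap1 with age in knockdown was −0.082 with DESeq2, −0.082 with RLE and −0.072 with upper-quartile scaling, which gave −0.027 for its difference of effects.

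Without single libraries, log2 values ran as follows. In juvenile knockdown Diap1 ran from −0.051 to 0.067 and p53 from −0.75 to 0.47. In mature knockdown Dark ran from −0.077 to 0.070, p53 from −0.20 to 0.0030, rpr from −0.14 to 0.29 and skl from −0.10 to 0.0025. With age in controls Diap1 ran from −0.11 to 0.027 and rpr from −0.50 to 0.98. With age in knockdown Diap1 ran from −0.027 to 0.15, grim from −1.35 to 0.56, p53 from −0.67 to 0.53 and skl from −0.85 to 0.019, and the difference of effects of p53 from −0.58 to 0.65.

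The median of all genes moved by 0.110 (juvenile knockdown), −0.100 (age in knockdown) and −0.109 (difference of effects) on the log2 scale with upper-quartile scaling, and by −0.114 with RLE and −0.115 with DESeq2 (age in knockdown). The replicate block ended no call of a member. In comparisons with juvenile libraries it rests on numbers that do not pair them. There rpr (log2 5.31, adjusted p = 0.0206) and Dark (−0.42, 0.0256) passed with age in knockdown and hid passed for the difference of effects (1.48, 0.0308). Depth limits grim, with 2 to 51 reads in mature libraries, and rpr, with 0 reads in 2 juvenile libraries. The limit of 3 reads for a count of 0 covers counting error only. SEs and SDs also include differences between libraries.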
